A study of Mus musculus with 9 samples.

Results

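The glutathione S-transferases (Gst), UDP-glucuronosyltransferases (Ugt) and cytosolic sulfotransferases (Sult) of mouse liver were examined in 3 genotypes. Members were all genes whose symbol begins with Gst and a class letter and number, with Ugt and a number, or with Sult and a number, as read from a probe set annotated to that gene alone. The rule gave 46 genes (19 Gst, 11 Ugt and 16 Sult) of 19938 genes with such a probe set, each read by its brightest probe set. A further 12 probe sets are annotated to several family genes at once, among them all those of Gsta1 and Gsta2, the one set for the Ugt1a genes and those of Sult2a1, Sult2a2, Sult2a4 and Sult2a5. They are no members.

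RNA of whole liver was hybridised to 9 Affymetrix gene arrays, 3 per genotype, from male C57/BL6 mice aged 8 to 9 weeks on standard chow. The labelled double knockout combines deletion of NEMO in hepatocytes with constitutive loss of p21, the NEMO knockout (NEMOΔhepa) lacks NEMO in hepatocytes and has p21 intact, and the wild type has neither deletion. No group lacked p21 alone, and the promoter driving the hepatocyte deletion is not given in the sources used here. Replicates are named in the labels by number and sample identifier, with no statement that each is a separate mouse, so p-values measure the spread between these samples. Ikbkg, which encodes NEMO, read 8.27 ± 0.18 in the labelled double knockout, 8.35 ± 0.12 in the NEMO knockout and 8.87 ± 0.13 in wild type (log2 signal, SD, n = 3), and was called lower in both knockout groups (limma adjusted p = 0.00835 and 0.0184). The double knockout is called "labelled" because the probe set annotated to Cdkn1a (the p21 gene) and 4930567H12Rik read 10.78 ± 0.56 there, against 10.10 ± 0.53 in the NEMO knockout and 8.67 ± 0.91 in wild type (log2 signal, SD, n = 3). That probe set was called higher in the labelled double knockout than in wild type (2.11 ± 0.45, limma adjusted p = 0.0194), although the label states loss of p21. Where its probes lie relative to the deletion was not analysed here. Array medians lay between 6.47 and 6.58 on the log2 scale.

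Conjugation is the second phase of hepatic drug and hormone metabolism. Glutathione S-transferases join glutathione to electrophiles, UDP-glucuronosyltransferases add sugars (glucuronic acid in most cases) to hydroxyl and acid groups of bilirubin, steroids and drugs, and sulfotransferases transfer sulfate from the donor PAPS to phenols, steroids and bile acids. The products are more water soluble and leave through bile or urine. Several Gst genes are induced by the transcription factor NRF2 (gene Nfe2l2), while expression of several Sult genes in mouse liver differs by sex.

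Relative to wild type, the NEMO knockout had 1 of 46 members called higher, Gstm3, and 5 called lower, the sulfotransferases Sult2a8 and Sult1b1, the glucuronosyltransferases Ugt3a1 and Ugt2b1, and Gsto1. A call is a limma adjusted p under 0.05, adjusted over 28939 probe sets. Over the 19938 genes 11% were called for the labelled double knockout and 9.28% for the NEMO knockout. For the NEMO knockout the called shares of all genes were 6.78% higher and 2.5% lower, and the members' shares were 2.17% and 10.9%. The labelled double knockout had 4 of 46 called higher than wild type (Ugt2b37, Sult1e1, Gstm3 and Gstp3; 8.7%, against 6.81% of all genes) and 7 called lower (Sult2a8, Sult5a1, Ugt3a1, Ugt3a2, Sult1b1, Gsto1 and Ugt2a3; 15.2%, against 4.19% of all genes). Both comparisons use the same 3 wild type arrays and are not independent of each other. Gstm3 was higher in both, and Sult2a8, Sult1b1, Ugt3a1 and Gsto1 were lower in both.

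The members are liver genes with mostly strong signals, and this bears on how their counts compare with all genes. Of the 46, 33 were at or above the array median on all 9 arrays and 13 were below it on all 9. Among the 9902 genes at or above the median on all 9 arrays, 8.43% were called higher and 4.23% lower in the NEMO knockout, against 3.03% and 15.2% of the 33 members. In the labelled double knockout these shares were 8.22% and 7.44% of such genes, against 9.09% and 21.2% of the 33 members. The median difference of the 46 members was -0.08 for the NEMO knockout and -0.09 for the other genotype, beside -0.03 for all genes in both comparisons (log2). Without overlap between groups, 2 members were higher and 16 lower in the NEMO knockout, where 13.4% and 12.4% of all genes separated in these directions. In the labelled double knockout 8 were higher and 12 lower, beside 13% and 15.1% of all genes.

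**Figure D1:**
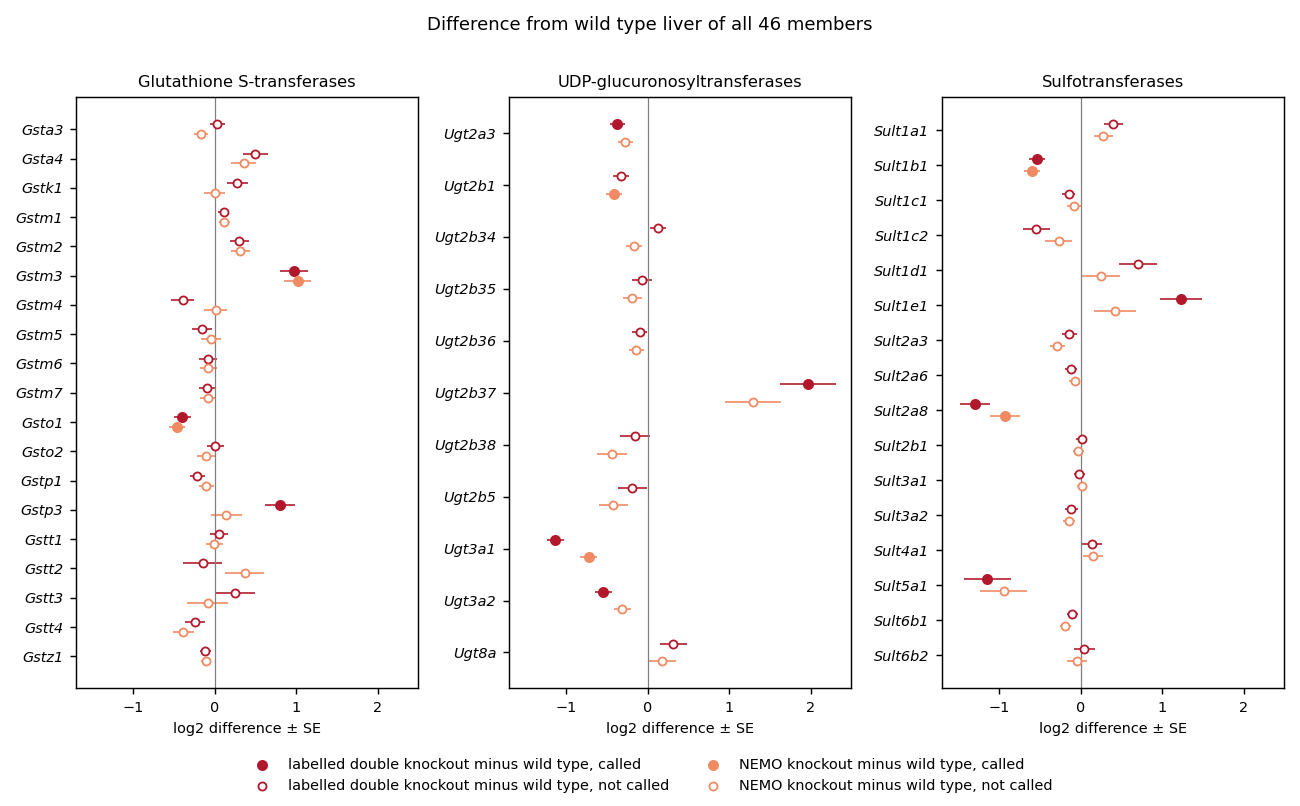
Differences from wild type of all 46 members (x axis, log2, bars show SE, n = 3 arrays per group), by enzyme family (y axis, genes). Dark red marks the labelled double knockout and orange the NEMO knockout, and filled points are called. Most points lie near 0, and Ugt2b37 reaches 1.97 and Sult2a8 -1.29 in the labelled double knockout.

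The alpha class members Gsta3 and Gsta4 were not called. Gsta4, which conjugates reactive aldehydes from lipid peroxidation, read 10.19, 9.90 and 10.15 in the labelled double knockout, 10.25, 9.67 and 9.91 in the NEMO knockout, and 9.45, 9.50 and 9.79 in wild type (log2 signal). All 3 labelled double knockout arrays lay above the wild type arrays, by 0.50 ± 0.15 on average (SE; adjusted p = 0.0806), and the NEMO knockout arrays overlapped wild type. Gsta3, the brightest alpha member, spanned only 12.20 to 12.66 over the 9 arrays.

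The largest changes in the alpha class were outside the member list, on the 4 probe sets annotated jointly to Gsta1, Gsta2, Gm10639 and Gm3776, which were chosen for description after their values were seen. The first of these read 11.00, 11.26 and 11.41 in the labelled double knockout, 11.20, 10.68 and 10.96 in the NEMO knockout, and 9.48, 8.87 and 9.45 in wild type. No knockout array overlapped a wild type array. The difference from wild type was 1.96 ± 0.19 in the labelled double knockout (limma adjusted p = 0.000372) and 1.68 ± 0.19 in the NEMO knockout (adjusted p = 0.000926). The other 3 sets differed by 1.54 to 1.88 and by 1.26 to 1.59 in the same 2 comparisons. Each of the 4 kept its calls under every alternative tried. Gsta1 and Gsta2 are close relatives, both known as inducible alpha class enzymes, and these signals cannot be divided between them.

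**Figure D2:**
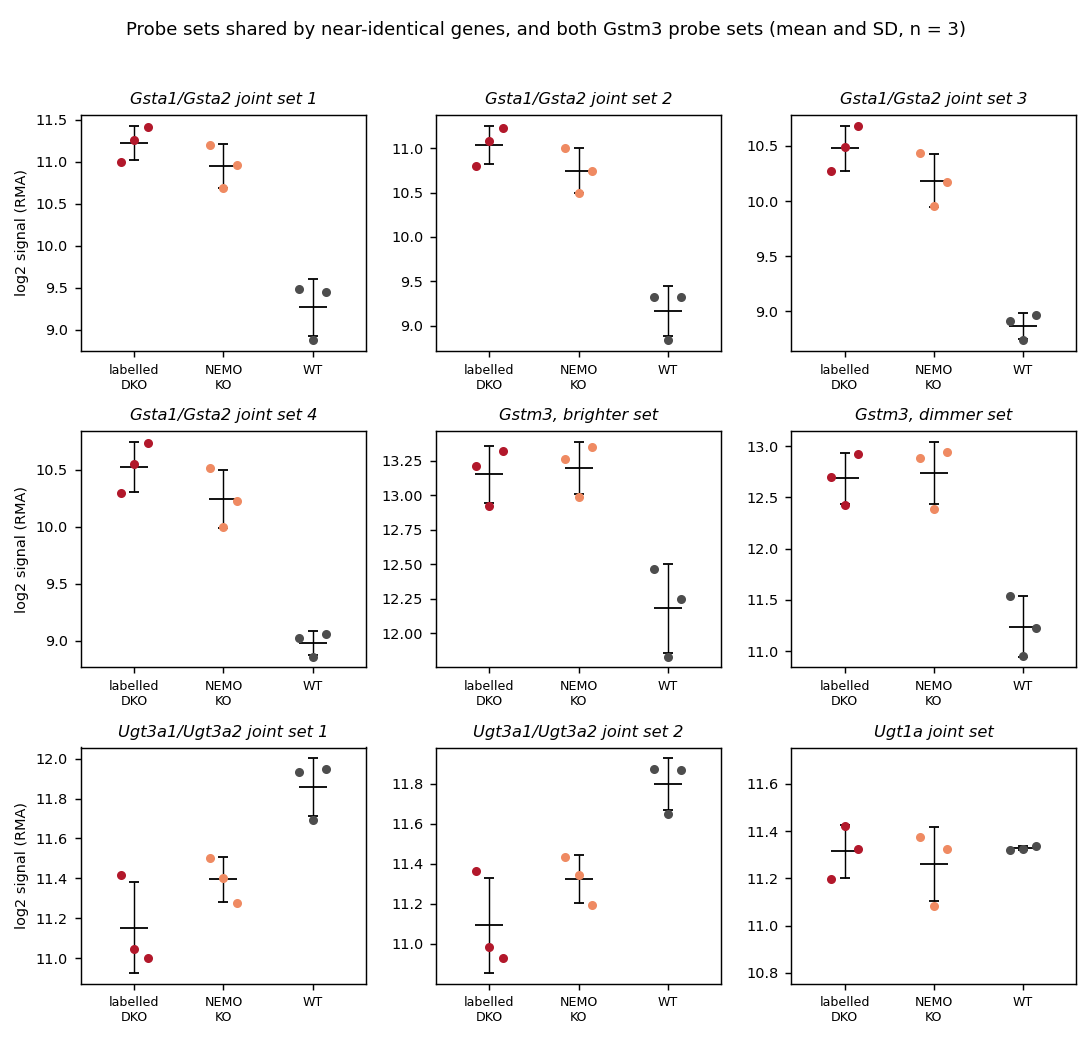
Log2 signal (y axis) on each array for probe sets shared by several genes and for both Gstm3 probe sets, with mean and SD (n = 3), by group (x axis). The 4 joint Gsta sets (annotated also to Gm10639 and Gm3776) and both Gstm3 sets have all 6 knockout arrays above wild type, the joint Ugt3a sets have them below, and the Ugt1a set overlaps.

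In the mu class Gstm3 rose in both knockout groups and the other 6 members were not called in either. Gstm3 read 13.21, 12.92 and 13.32 in the labelled double knockout, 13.26, 12.99 and 13.35 in the NEMO knockout, and 12.46, 11.83 and 12.25 in wild type. All 6 knockout arrays were above all wild type arrays, and the knockout groups overlapped each other. The increase was 2.02-fold in the NEMO knockout (1.02 ± 0.17, adjusted p = 0.00634) and 1.96-fold in the labelled double knockout (0.97 ± 0.17, adjusted p = 0.00698). A second, dimmer Gstm3 probe set differed more from wild type. Its differences were 1.44 ± 0.19 for the labelled double knockout and 1.50 ± 0.19 for the NEMO knockout. The size therefore depends on the probe set while the direction does not. Where the probes of either set lie on the genome was not examined here.

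The 7 Gstm genes follow one another on chromosome 3 in the RefSeq gene table. Gstm1, whose probe set was the brightest of the class, lay between 12.75 and 12.99 on all 9 arrays. Gstm2 differed from wild type by 0.32 ± 0.12 in the NEMO knockout (adjusted p = 0.166) and by 0.30 ± 0.12 in the labelled double knockout (adjusted p = 0.176). Gstm4 read 10.72, 11.31 and 11.00 in the labelled double knockout, 11.47, 11.27 and 11.50 in the NEMO knockout, and 11.52, 11.30 and 11.38 in wild type. Labelled double knockout replicates 1 and 3 were low and replicate 2 was within the wild type range, and the difference of -0.39 ± 0.14 did not pass (adjusted p = 0.132). Gstm5, Gstm6 and Gstm7 differed from wild type by -0.16 to -0.05. Mu class sequences are similar, and probe sets of one gene may take up signal from another.

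The promoters of Gstm3 and 2 further members are shown, chosen after their values were seen. Gstm3 and Ugt2b37 had the largest called changes of the Gst and Ugt families, and Ugt3a1 had the smallest adjusted p of all members. The window runs from 250 bases before to 50 bases after the RefSeq start (GRCm38.p6) and was searched on both strands for TGACNNNGC, the core of the antioxidant response element bound by NRF2. No match lies in these 3 windows, so no letters are in capitals. Gstm3 lies on the minus strand at chr3:107969125-107969424, Ugt2b37 on the minus strand at chr5:87254739-87255038 and Ugt3a1 on the plus strand at chr15:9279579-9279878.
Gstm3: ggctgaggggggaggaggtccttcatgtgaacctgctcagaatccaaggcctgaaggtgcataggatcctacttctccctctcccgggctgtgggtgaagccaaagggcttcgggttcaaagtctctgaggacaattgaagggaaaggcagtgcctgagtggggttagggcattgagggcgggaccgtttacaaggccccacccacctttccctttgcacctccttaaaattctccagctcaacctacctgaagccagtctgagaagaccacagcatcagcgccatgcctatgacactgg
Ugt2b37: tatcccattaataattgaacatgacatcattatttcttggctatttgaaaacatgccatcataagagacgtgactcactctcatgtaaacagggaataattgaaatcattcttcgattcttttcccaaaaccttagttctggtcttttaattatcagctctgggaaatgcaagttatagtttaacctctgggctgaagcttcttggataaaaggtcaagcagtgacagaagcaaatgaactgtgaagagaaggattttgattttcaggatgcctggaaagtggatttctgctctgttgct
Ugt3a1: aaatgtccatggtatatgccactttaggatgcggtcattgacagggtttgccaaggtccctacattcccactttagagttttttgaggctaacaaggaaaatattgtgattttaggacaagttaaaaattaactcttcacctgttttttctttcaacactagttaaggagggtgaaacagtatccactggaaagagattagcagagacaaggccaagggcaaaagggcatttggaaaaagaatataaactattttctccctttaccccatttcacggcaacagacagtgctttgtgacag

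Of the 46 members 42 had a promoter in the RefSeq table, and 3 of these (7.14%) held a match, against 14% of all 27025 genes with a promoter. The 3 were Gsta3, Gstm5 and Gstm7, none of them called in any comparison. Their matches begin at positions -121, -42 and -129 relative to the start and are shown in capitals with 10 bases on each side, on the gene's strand.
Gsta3: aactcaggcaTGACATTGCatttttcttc
Gstm5: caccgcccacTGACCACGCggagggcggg
Gstm7: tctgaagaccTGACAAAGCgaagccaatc
A match is a run of letters in this window and no evidence of binding, and elements farther from the start were not searched.

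Of the pi class, Gstp3 was called higher in the labelled double knockout. It read 8.83, 9.07 and 9.09 there, 8.19, 8.54 and 8.28 in the NEMO knockout, and 8.26, 8.56 and 7.76 in wild type. All 3 labelled double knockout arrays were above all 6 others, while the NEMO knockout and wild type overlapped. The increase over wild type was 1.74-fold (0.80 ± 0.19, adjusted p = 0.0259), and the difference from the NEMO knockout, 0.66 ± 0.19, did not pass (adjusted p = 0.35). Gstp1, the abundant pi class enzyme of male mouse liver, lay between 13.07 and 13.52 on the 9 arrays and was not called. The 2 probe sets shared by Gstp1 and Gstp2 had all 6 knockout arrays below wild type, with differences of -0.28 in the labelled double knockout and -0.25 and -0.26 in the NEMO knockout, and were not called (lowest adjusted p = 0.169).

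The remaining Gst classes held 1 called member, Gsto1, an omega class enzyme that reduces dehydroascorbate. Gsto1 read 9.65, 9.43 and 9.27 in the labelled double knockout, 9.41, 9.50 and 9.25 in the NEMO knockout, and 9.87, 9.84 and 9.83 in wild type. Wild type arrays were nearly equal and above all knockout arrays. Gsto1 fell by 0.39 ± 0.10 in the labelled double knockout (adjusted p = 0.0419) and by 0.46 ± 0.10 in the NEMO knockout (adjusted p = 0.0243). Gsto2 was below the array median on all arrays. Gstk1, the mitochondrial and peroxisomal kappa enzyme, and Gstz1, the maleylacetoacetate isomerase of tyrosine breakdown, were not called (lowest adjusted p = 0.264). Of the 4 theta class genes none was called, and Gstt1, the brightest, lay between 11.39 and 11.76.

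Among the glucuronosyltransferases Ugt2b37 had the largest increase of all members. Its values were 10.38, 9.15 and 9.38 in the labelled double knockout, 8.53, 9.44 and 8.91 in the NEMO knockout, and 8.02, 7.24 and 7.75 in wild type. Both knockout groups were above wild type without overlap and overlapped each other, with labelled double knockout replicate 1 about a log2 unit above the other 2. The increase was 3.91-fold in the labelled double knockout (1.97 ± 0.34, adjusted p = 0.00675). In the NEMO knockout the difference of 1.29 ± 0.34 did not pass (adjusted p = 0.0519), although 8 of 19 alternatives brought it past the threshold. The role of this enzyme beyond its family is not described here.

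The other 6 Ugt2b members and Ugt2a3 sat at or below wild type in the NEMO knockout, with differences of -0.44 to -0.14. Ugt2b1 read 12.28, 11.96 and 12.16 in the labelled double knockout, 11.99, 12.17 and 11.98 in the NEMO knockout, and 12.51, 12.32 and 12.54 in wild type. No knockout array reached the wild type range. Ugt2b1 fell by 0.41 ± 0.10 in the NEMO knockout (adjusted p = 0.0371), and in the labelled double knockout the difference was -0.33 ± 0.10 (adjusted p = 0.0826). Ugt2a3 read 11.57, 11.40 and 11.49 in the labelled double knockout, 11.61, 11.58 and 11.57 in the NEMO knockout, and 11.81, 11.70 and 12.06 in wild type. Again all knockout arrays were below all wild type arrays. Ugt2a3 fell by 0.37 ± 0.09 in the labelled double knockout (adjusted p = 0.0351), and the NEMO knockout differed by -0.27 ± 0.09 (adjusted p = 0.121).

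Ugt2b38 and Ugt2b5 were among the 5 largest differences not called in the NEMO knockout, at -0.44 ± 0.18 (adjusted p = 0.219) and -0.42 ± 0.18 (adjusted p = 0.221). In the labelled double knockout they differed from wild type by -0.15 and -0.19. Ugt2b36, whose probe set was the brightest Ugt2b signal, lay between 12.20 and 12.58 on all arrays. The set shared by Ugt2a1 and Ugt2a2 read 3.35 to 3.65 on the 9 arrays, below the array medians, and was not called. The joint probe set of the Ugt1a genes, which share their last exons and include the bilirubin-conjugating Ugt1a1, read 11.20, 11.42 and 11.32 in the labelled double knockout, 11.38, 11.08 and 11.32 in the NEMO knockout, and 11.32, 11.32 and 11.34 in wild type. The groups overlapped, with differences from wild type of -0.01 ± 0.09 and -0.07 ± 0.09. This signal sums the Ugt1a genes and would not show opposite changes among them.

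Ugt3a1 had the smallest adjusted p among the members. In human, UGT3A1 transfers N-acetylglucosamine and not glucuronic acid. Mouse Ugt3a1 read 10.49, 10.05 and 10.12 in the labelled double knockout, 10.64, 10.68 and 10.57 in the NEMO knockout, and 11.37, 11.30 and 11.38 in wild type. The 3 groups did not overlap, with the labelled double knockout lowest. Ugt3a1 fell by 1.13 ± 0.11 in the labelled double knockout (2.19-fold, adjusted p = 0.000361) and by 0.72 ± 0.11 in the NEMO knockout (1.65-fold, adjusted p = 0.00354).

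Its neighbour on chromosome 15, Ugt3a2, read 11.74, 11.38 and 11.35 in the labelled double knockout, 11.79, 11.75 and 11.64 in the NEMO knockout, and 12.07, 11.93 and 12.10 in wild type. All knockout arrays were below wild type. Ugt3a2 fell by 0.54 ± 0.11 in the labelled double knockout (adjusted p = 0.0117), and in the NEMO knockout the difference was -0.31 ± 0.11 (adjusted p = 0.127). Of the 2 probe sets shared by Ugt3a1 and Ugt3a2, both were called lower in the labelled double knockout (-0.70 and -0.71) and 1 in the NEMO knockout (-0.47, adjusted p = 0.0496), a call that ended under 11 of 19 alternatives. Ugt8a, the ceramide galactosyltransferase of myelin, was below the array median everywhere and not called.

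**Figure D3:**
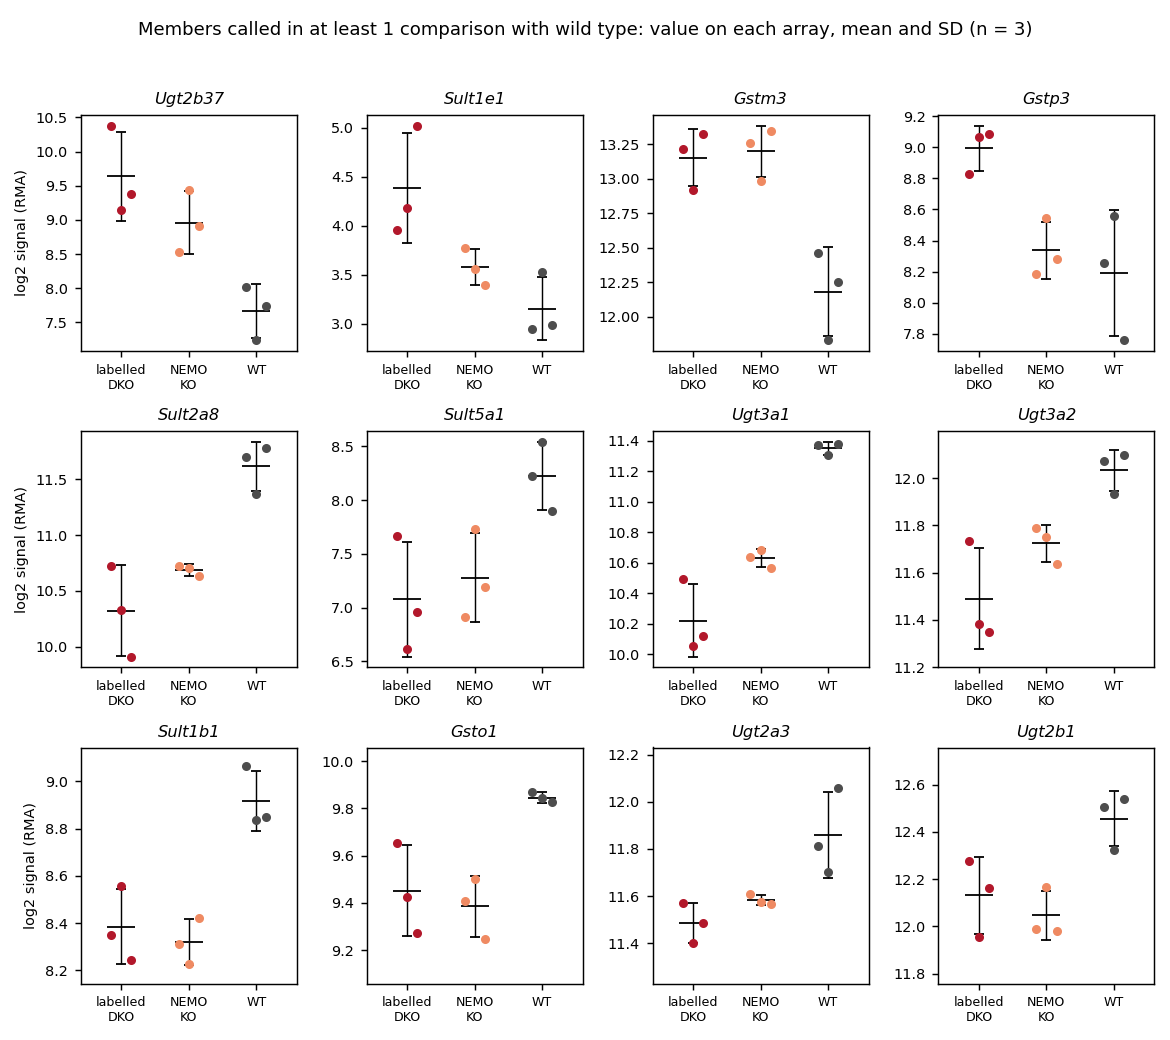
Log2 signal (y axis) on each array for the 12 members called against wild type in at least 1 comparison, by group (x axis), with mean and SD (n = 3). Ugt2b37, Sult1e1, Gstm3 and Gstp3 are higher in the labelled double knockout than in wild type, and the other 8 are lower.

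In the sulfotransferase family Sult2a8, a mouse liver enzyme that sulfates bile acids, had the largest decrease. It read 10.73, 10.33 and 9.91 in the labelled double knockout, 10.73, 10.71 and 10.63 in the NEMO knockout, and 11.70, 11.37 and 11.78 in wild type. All 6 knockout arrays were below wild type, and the spread was larger in the labelled double knockout (SD 0.41) than in the NEMO knockout (SD 0.05). Sult2a8 fell by 1.29 ± 0.18 in the labelled double knockout (2.45-fold, adjusted p = 0.0025) and by 0.93 ± 0.18 in the NEMO knockout (1.90-fold, adjusted p = 0.0142). Its relatives Sult2a3 and Sult2a6, and the 2 joint sets of Sult2a1, Sult2a2, Sult2a4 and Sult2a5, were below the array median on all 9 arrays and not called. Sult2a1 and its close relatives are known as female-predominant in mouse liver.

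Sult1b1, which sulfates thyroid hormones, read 8.35, 8.56 and 8.24 in the labelled double knockout, 8.31, 8.23 and 8.42 in the NEMO knockout, and 9.06, 8.84 and 8.85 in wild type. The knockout groups overlapped each other and both were below wild type. Sult1b1 fell by 0.53 ± 0.10 in the labelled double knockout (1.45-fold, adjusted p = 0.0101) and by 0.60 ± 0.10 in the NEMO knockout (1.51-fold, adjusted p = 0.00659). In the RefSeq table it lies beside Sult1d1 and Sult1e1 on chromosome 5, next to the Ugt2 genes.

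Sult1d1, an enzyme that sulfates catecholamines in mouse, read 11.24, 10.76 and 10.79 in the labelled double knockout, 10.82, 10.15 and 10.45 in the NEMO knockout, and 9.89, 10.71 and 10.07 in wild type. Its labelled double knockout arrays were above wild type, replicates 2 and 3 by a small margin, and the difference of 0.71 ± 0.24 did not pass (adjusted p = 0.11). Sult1e1, the oestrogen sulfotransferase, read 3.95, 4.18 and 5.02 in the labelled double knockout, 3.77, 3.56 and 3.40 in the NEMO knockout, and 2.95, 3.52 and 2.98 in wild type. The labelled double knockout was above both other groups and most of all on replicate 3, but all 9 values were below the array medians. Wild type replicates 1 and 3 were near the values of Sult3a1, which read 2.80 to 2.95 over all arrays, and replicate 2 was higher. Sult1e1 is therefore not shown to be above background in wild type, and no fold is given. The fitted difference from wild type was 1.23 ± 0.26 (adjusted p = 0.0178), and the NEMO knockout overlapped wild type (0.42 ± 0.26, adjusted p = 0.418).

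Sult1a1, which sulfates simple phenols, differed from wild type by 0.40 ± 0.12 in the labelled double knockout (adjusted p = 0.0656). Sult1c2 differed by -0.54 ± 0.17 there (adjusted p = 0.0803), with replicates 1 and 3 at 6.69 and 6.68 and replicate 2 at 7.31, against 7.38 to 7.49 in wild type. Sult5a1 read 7.66, 6.61 and 6.96 in the labelled double knockout, 6.92, 7.73 and 7.19 in the NEMO knockout, and 8.23, 8.54 and 7.90 in wild type. All knockout arrays were below wild type, with a wide spread in every group. Sult5a1 fell by 1.14 ± 0.29 in the labelled double knockout (2.21-fold, adjusted p = 0.0373), and the NEMO knockout differed by -0.94 ± 0.29 (adjusted p = 0.0871). Sult1c1, the other members of Sult3 to Sult6 and Sult2b1, the cholesterol sulfotransferase, were below the array median on all arrays.

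Of the 17 called differences, 8 held under every alternative tried: Gstm3, Sult1b1 and Ugt3a1 in both comparisons, and Sult2a8 and Ugt2b37 in the labelled double knockout. In the NEMO knockout the calls of Gsto1, Sult2a8 and Ugt2b1 ended under 4, 3 and 7 of 19 alternatives (highest adjusted p = 0.0926, 0.0603 and 0.127). In the labelled double knockout those of Gsto1, Sult5a1 and Ugt2a3 ended under 11, 9 and 9 of 19 (highest adjusted p = 0.14, 0.126 and 0.1105). Those of Gstp3, Sult1e1 and Ugt3a2 ended under 4 of 19, 3 of 18 and 1 of 19 (0.0928, 0.0694 and 0.0515). The filter on dim probe sets left Sult1e1 out. The number of called members in the NEMO knockout was 3 when either wild type replicate 3 or replicate 3 of the NEMO knockout was left out, and in the labelled double knockout it was 7 when wild type replicate 1 or 3 was left out and 6 when its own replicate 3 was.

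Between the labelled double knockout and the NEMO knockout no member was called by limma, against 0.155% of all genes. By the same limma fit 6 of 46 had an unadjusted p under 0.05. The share of all genes under that unadjusted threshold was not computed, so an excess among the members is not shown. The 5 largest differences were those of Sult1e1 (0.81 ± 0.26, adjusted p = 0.474), Ugt2b37 (0.68 ± 0.34, adjusted p = 0.698), Gstp3, Gstt2 (-0.52 ± 0.24, adjusted p = 0.681) and Sult1d1 (0.46 ± 0.24, adjusted p = 0.712). Sult1e1, Gstp3, Ugt2b34 and Ugt2b5 were higher and Ugt3a1 was lower in the labelled double knockout without overlap, against 4.49% and 6.36% of all genes that separated in these directions. Ugt3a1 differed by -0.41 ± 0.11 (adjusted p = 0.291). All 7 Ugt2b members had a positive difference, 0.04 to 0.68, and all 7 Gstm members one between -0.40 and 0, none of them called. Those of Gstm1, Gstm2, Gstm6 and Gstm7 were only -0.0135 to -0.0012, and that of Gstm3 changed sign under 3 of 19 alternatives. The share of all genes with each sign was not computed. With 3 arrays per group these values do not show that the knockout groups are alike.

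**Figure D4:**
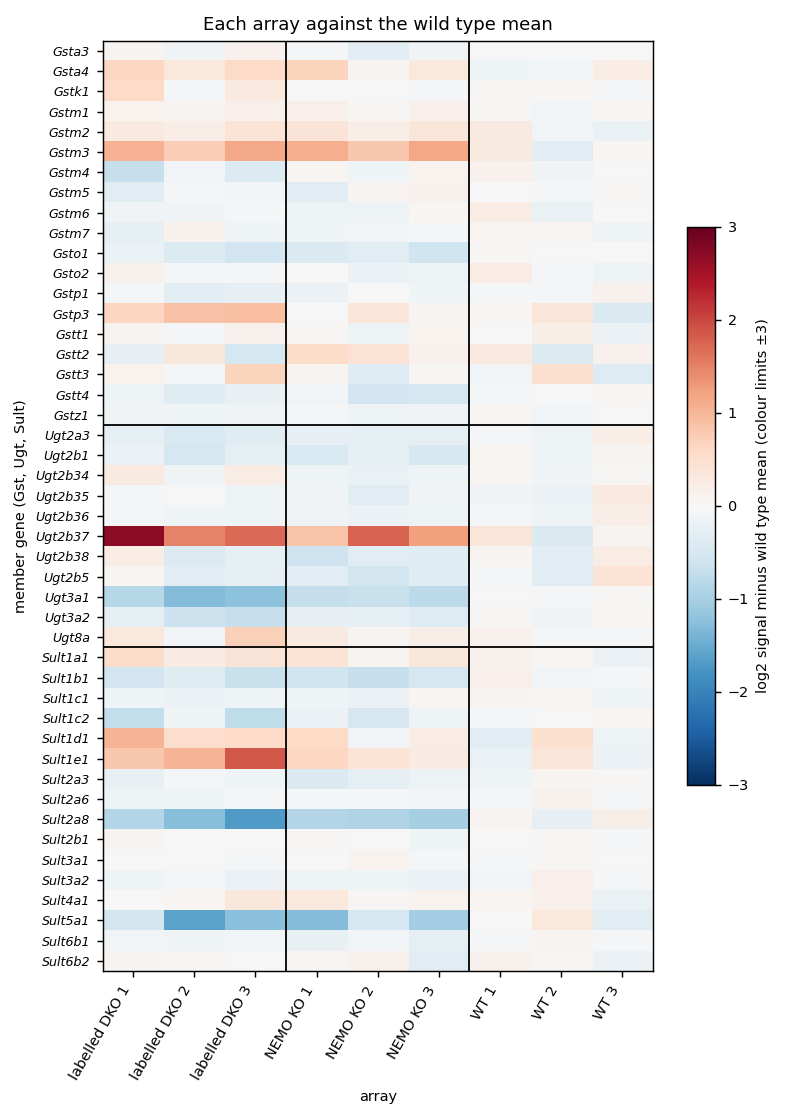
Log2 signal of each array (x axis) minus the wild type mean for all 46 members (y axis), with lines between groups and between families. Gstm3 and Ugt2b37 are above the wild type mean on all 6 knockout arrays and Ugt3a1, Sult2a8, Sult1b1 and Sult5a1 below it, while Gstp3 and Sult1e1 are most raised in the labelled double knockout.

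Likeness between members was described by Pearson's r over the 9 arrays, which includes the difference between genotypes, with r after subtraction of each group's mean beside it. Sult2a8 was most like Ugt3a2 (r = 0.965, and 0.889 within groups) and Ugt3a1 (0.964 and 0.749), then Ugt2a3 (0.901 and 0.552). Gstm3 was most like Gstm1 (0.896 and 0.871) and Gstm2 (0.863 and 0.691), then Ugt2b37 (0.813 and 0.31). The probe sets of Gstm1 and Gstm2 may share signal with that of Gstm3, which was not tested. Ugt2b37 was most like Gstm3, then Sult1a1 (0.745 and 0.147) and Gstk1 (0.678 and 0.662).

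Lists of genes around the conjugation step were read in the same fit. Among regulators, Nfe2l2, which encodes NRF2, was the 1 called of 10. It read 10.74, 10.78 and 10.87 in the labelled double knockout, 10.70, 10.84 and 10.74 in the NEMO knockout, and 10.29, 10.18 and 10.26 in wild type. The increase was 0.55 ± 0.07 in the labelled double knockout (adjusted p = 0.00119) and 0.52 ± 0.07 in the NEMO knockout (adjusted p = 0.00191), without overlap with wild type. The xenobiotic receptors Nr1i2, Nr1i3 and Ahr were not called. Of 8 sentinel targets of these factors, 2 rose in the labelled double knockout, Srxn1, the sulfiredoxin (0.62 ± 0.13), and Hmox1, the haem oxygenase (0.68 ± 0.15), and 1 in the NEMO knockout, Srxn1 (0.81 ± 0.13). Cyp2b10, a target of the receptor Nr1i3, had the largest difference of the list and was not called. It read 10.22, 7.13 and 9.46 in the labelled double knockout, 8.00, 6.59 and 7.68 in the NEMO knockout, and 5.97, 7.16 and 5.75 in wild type. Each knockout group overlapped wild type, and the differences were 2.65 ± 0.73 in the labelled double knockout (adjusted p = 0.0541) and 1.13 ± 0.73 in the NEMO knockout (adjusted p = 0.443). Cyp1a1, Cyp1a2, Cyp3a11, Aldh1a1 and Txnrd1 were not called. Txnrd1 differed from wild type by 0.06 ± 0.06 in both knockout groups. Gclc and Gclm of the glutathione list below were not called either. They differed by -0.13 and -0.10 in the labelled double knockout and by -0.22 and -0.06 in the NEMO knockout.

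Cofactor supply had few calls. For glutathione, 2 of 12 genes fell in the labelled double knockout, the glutathione reductase Gsr (-0.31 ± 0.08) and Cbs of the transsulfuration pathway (-0.37 ± 0.09), and 1 rose in the NEMO knockout, the synthetase Gss (0.57 ± 0.15, adjusted p = 0.0462). Over 19 alternatives the calls of Gsr, Cbs and Gss ended under 11, 7 and 12 (highest adjusted p = 0.136, 0.108 and 0.139), with the replicate block among them for Gsr and Gss. For UDP-glucuronate, 1 of 4 listed genes was called, Gusb (0.48 ± 0.10 in the labelled double knockout and 0.51 ± 0.10 in the NEMO knockout). Gusb removes glucuronic acid in lysosomes and is not itself a supply gene. Ugp2, Ugdh and Slc35d1 were not called. None of 5 PAPS genes was called in either comparison. By limma 0 had an unadjusted p under 0.05 in the labelled double knockout and 1 in the NEMO knockout, with no share of all genes computed for that threshold.

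Among 15 other conjugation enzymes, 4 rose and 1 fell in the labelled double knockout and 2 rose and 1 fell in the NEMO knockout. Hnmt, the histamine methyltransferase, rose by 1.12 ± 0.11 in the labelled double knockout and by 0.77 ± 0.11 in the NEMO knockout. Nqo1, the quinone reductase, differed by 0.69 ± 0.15 and 0.75 ± 0.15 in the same comparisons, and the N-acetyltransferase Nat1 by -0.59 ± 0.08 and -0.54 ± 0.08. Nat1 read 3.86 to 4.65 on the 9 arrays, below all array medians. The microsomal transferase Mgst3 rose by 0.61 ± 0.12 in the labelled double knockout and was not called in the NEMO knockout (0.23 ± 0.12). The difference between those 2 groups did not pass either (adjusted p = 0.473). Calls also ended under some alternatives in the labelled double knockout for Hmox1 (5 of 19), Gusb (4), Mgst3 (3), Srxn1 (2) and Nqo1 (1), and in the NEMO knockout for Gusb (3) and Nqo1 (2), while those of Nfe2l2, Hnmt and Nat1 held under every alternative that could be run in both comparisons.

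In whole liver, fewer cells of a type and less RNA per cell cannot be told apart. Of the 8 hepatocyte markers (such as Alb, Ttr and Hnf4a) none was called in either comparison, and their mean signal was 13.17 to 13.33 in the labelled double knockout, 13.20 to 13.24 in the NEMO knockout and 13.23 to 13.30 in wild type (log2). Macrophage markers had 7 of 8 called higher in both knockout groups, with means of 8.72 to 8.99 and 8.70 to 8.90, against 7.12 to 7.29 in wild type. Stellate cell markers had 7 of 8 called higher in both, cholangiocyte markers 2 of 6 and proliferation markers 4 of 4. No endothelial, B cell, adipocyte or exocrine pancreas marker was called. Of the T and NK cell markers, 3 of 5 were called higher in the NEMO knockout and none in the labelled double knockout. Between the knockout groups none of these 5 was called, with a median difference of -0.53 (labelled double knockout minus NEMO knockout). The part of these cell types in the members' changes was not tested.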

How the data were processed

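Liver RNA of 9 arrays was measured, 3 for each genotype. Values were deposited by the authors on a log2 scale for each probe set on each array. RMA, which corrects background, normalises quantiles and summarises probes by median polish, is named in the submitters' processing notes. The log base was taken from RMA and the range of values. Its version and any filter are not stated there. Quantile normalisation hides a change of all RNA together, and arrays give no read depth, so their number limits the precision.

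From these values, 6617 of 35556 probe sets (18.6%) with identifiers below the first annotated one were taken to be controls and left out. Of 28939 tested, 21789 had 1 symbol, 1621 several and 5529 none. All 46 members matched the RefSeq gene table (GRCm38.p6) by gene identifier. A single limma model (version 3.58.1, R 4.3.3, eBayes without trend) over all 9 arrays gave the differences, with p-values adjusted by Benjamini-Hochberg over all probe sets tested and a threshold of 0.05. Signals of different probe sets are not comparable as amounts. On simulated data for the NEMO knockout against wild type with 28939 probe sets, 39 of 67 changes of 0.5, 63 of 67 of 1 and 66 of 66 of 2 (log2) were recovered, with 7 false calls. Only these probe sets were changed there, with independent noise, while 2222 were called in the data. The recovery and false calls in the data may therefore differ.

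Named with values are members called in any comparison, the brightest of each subfamily and the 5 largest differences not called per comparison, and up to 4 called genes of each neighbouring list; Cyp2b10, Nr1i2, Ahr and other uncalled genes, and the remaining Gstm and Ugt2b genes, were added after their values were seen. Members and lists were chosen with earlier results of these data known. The alternatives were an intensity trend, 2 groups in the fit, array weights, 3 further normalisations, a filter on dim probe sets, controls kept, the replicate number as a block, the mean of a gene's probe sets and each array left out. Promoter sequences are from RefSeq.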

Additional observations from a re-analysis of the deposited data

How the results depend on the processing

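All 17 called member differences kept their direction under every alternative that could be run, which were 18 for Sult1e1, and 8 also kept their call. The number of called members lay between 3 and 9 in the NEMO knockout against wild type (6 as reported) and between 6 and 11 in the labelled double knockout against wild type (11 as reported) with each array left out in turn, and it was 6 in that second comparison with only the 2 groups in the fit. Over all 19 alternatives the count in that second comparison ran from 6 to 14. Between the knockout groups the number of called members stayed at 0 under all 19 alternatives. The members' median difference in the NEMO knockout was -0.15 with arrays centred on their median, against -0.08, and ran from -0.12 to -0.061 with an array left out. In the labelled double knockout it was -0.16 with median centring, -0.0623 with quantile normalisation and -0.053 with cyclic loess, against -0.094, and ran from -0.094 to -0.055 with an array left out. With median centring the median of all probe sets was -0.10 and -0.09 in these comparisons, against -0.04 and -0.03 in the main fit. Of all calls, 52.7% and 44.1% were then higher. That share was 64.5% and 56.4% with quantile normalisation and 77.9% and 69.5% with cyclic loess. The balance of higher and lower calls over all probe sets thus depended on the scaling. How the members' calls split by direction under these scalings is not given here. The called genes of the neighbouring lists between the knockout groups numbered 0 to 1 with an array left out. The replicate block gave 6, 11 and 0 called members, the same counts as without it but not the same members. In the labelled double knockout the block ended the call of Sult5a1 (adjusted p = 0.0585) and brought in Sult1a1 (0.0329), and in the NEMO knockout it ended that of Ugt2b1 (0.0546) and brought in Sult2a3 (0.0365), while the number of all calls between the knockout groups was 18, against 57. Same-numbered arrays correlated in their deviations from the group means at -0.12 to 0.39, and arrays of different number at -0.30 to 0.18. Between the knockout groups the same-numbered pairs were at 0.39, 0.08 and 0.25, against -0.30 to 0.11 for the other pairs. The labels do not say that the numbers pair mice, so the main fit did not use them. Whether same-numbered arrays belong together was not tested. Values not called changed sign as follows. With an array left out, Gstp3 in the NEMO knockout ran from -0.073 to 0.33, negative without wild type replicate 3. Between the knockout groups Gstm3 was 0.014 with array weights and ran from -0.15 to 0.069 with an array left out, Gsto1 from -0.035 to 0.16, Sult1b1 from -0.023 to 0.13 and Sult5a1 from -0.49 to 0.035. The cause of these shifts was not tested. Detection calls are not used here, so the 13 members below the array median have no stated limit of detection.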

Other observations

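Sex-biased liver genes outside the 3 families were read in the same fit. Of 9 male-biased genes measured, 7 fell in the labelled double knockout and 6 in the NEMO knockout, none rose in either, and the median differences were -1.71 and -1.35 (log2). The largest were Hsd3b5, a steroid dehydrogenase (-4.76 and -4.57), Elovl3, a fatty acid elongase (-2.58 and -2.39), Mup21 (-1.85 and -1.85) and Cyp7b1, the oxysterol hydroxylase (-1.83 and -1.98). Of 10 female-biased genes 3 rose and none fell in each, Abcd2, a peroxisomal transporter (1.28 ± 0.23 in the labelled double knockout and 2.06 ± 0.23 in the NEMO knockout), Fmo2, a flavin monooxygenase (1.68 ± 0.19 and 0.79 ± 0.19), and Prom1 (1.01 ± 0.14 and 0.72 ± 0.14). In the NEMO knockout the Fmo2 call ended under 10 of 19 alternatives, the replicate block and quantile normalisation included (highest adjusted p = 0.134), and that of Prom1 under 3 (highest adjusted p = 0.0567). Prom1 is also a ductular marker. The other female-biased genes measured were not called. Of these, Cyp2b9 differed by 2.99 ± 0.87 and 1.86 ± 0.87 (limma adjusted p = 0.0657 and 0.271), and Cux2 by 0.003 and -0.0075. Of all genes, 6.81% and 6.78% were called higher and 4.19% and 2.5% lower in these comparisons. Several genes of these lists were known to differ when the lists were written, so the counts are a description. Sult3a1, known as female-predominant in mouse liver, read 2.81 to 2.85 in the labelled double knockout, 2.80 to 2.95 in the NEMO knockout and 2.80 to 2.89 in wild type, below the array median on every array.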
